A study of Rattus norvegicus with 26 samples.

Results

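The data were the late step of smooth muscle differentiation of the rMAPC line 3c3, from d4 to d6. The step comprised 6 of the 26 arrays of the series, the 3 arrays labelled d4 and the 3 labelled d6, taken from the line, day and replicate number in the labels. rMAPCs are rat multipotent adult progenitor cells that express Oct4. The line 3c3 is a single clone that the labels describe as bone marrow derived, from the Fischer strain with the age label E18. All of these cells had received TGFβ1 and PDGF-BB in basal rMAPC medium since d0. By the study's methods the cultures were without serum and kept under lowered oxygen. Both days were thus treated, and no untreated culture of the same age was analysed here. The samples of a replicate number lay on the same slide, with d4 always at position 3 and d6 always at position 4, so that day and slide position cannot be told apart. The other arrays used were the 3c3 arrays of d0, which is undifferentiated, and d2, the same 4 days of Cl19, a separately isolated Fischer bone marrow rMAPC line with the age label 3 week and the same treatment, and 2 arrays of a bought control RNA, which entered only the normalization and the fits over all 26 arrays. The labels number 3 replicates of each day and do not say whether they came from separate cultures. The p-values of the fits thus measure the spread between these samples once slide differences are taken out, pooled over the days in a fit.

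Smooth muscle cells are known for a contractile apparatus of actin, myosin light chains, calponin and transgelin, whose genes are controlled by serum response factor and its myocardin family partners. TGFβ signals through Smad proteins to switch on such genes together with matrix genes, and PDGF-BB is known as a growth and migration signal for smooth muscle. Oct4-expressing rMAPCs also carry the transcription factors of primitive endoderm, the extraembryonic lineage whose visceral form makes apolipoproteins and other serum carrier proteins.

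RNA of a sample was hybridized alone, in 1 colour, to an Agilent rat array, and all levels below are quantile-normalized log2 signals. On the 6 arrays, 43.2% to 57.1% of the gene features were well above background. The slide of replicate 3 stood apart in background, with 43.2% and 44.3% against 55.4% to 57.1% on the other 2 slides. The processed signal of its negative controls was 4.68 and 5.30 against 1.098 to 1.16. The slide of replicate 2 had the largest median absolute change from d4 to d6, 0.40 against 0.28 and 0.31. In a fit that weights the arrays, its d4 and d6 arrays had the lowest weights of the 12 arrays of 3c3, 0.25 and 0.23. Of 7 smooth muscle markers with a probe, 5 were well above background on all d4 arrays and on all d6 arrays, and Mylk, the smooth muscle myosin kinase, was above it on none. All 5 epithelial markers and all 5 rMAPC markers were also above background on every array of both days, as were 3 of 4 cardiac and 2 of 3 neural markers. The 5 smooth muscle, 5 epithelial and 5 rMAPC markers were so on all d0 arrays too. Presence above background therefore does not show how far the label of a smooth muscle culture was met. Of 3 markers of blood cells, Ptprc and Spi1 were above background on none of the 6 arrays and Tyrobp on 2 of 3 on each day, and of the 6 tested genes of a longer blood cell list 3 rose and 0 fell, with a median change of 0.68. Their part in the results below was not tested. Myod1 and Myog of skeletal muscle were above background on none of the 6. With 3 arrays a day, which sets the precision, the SD of a typical (median) probe was 0.29 on d4 and 0.30 on d6. It was 0.21 on d0 and 0.18 on d2. The fit below pooled the spread over all these days, so its SEs and p-values for d6 against d4 also draw on the quieter days.

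From d4 to d6, 2545 probes (11.9%) rose and 2639 (12.4%) fell out of 21312 tested, or 24.3% in either direction, by limma with the slide as a block and a Benjamini-Hochberg adjusted p below 0.05. With 1 probe per gene, the brightest, 1573 genes rose and 1579 fell of 11026, 14.3% in each direction and 28.6% in either, and the median change over all of them was -0.05. Of the probes called, 1035 rose and 656 fell by at least 1 log2 unit. Of the 5184 probes called, 5176 moved in the same direction on all 3 slides, which their selection from these same slides makes likely. The number of calls depended on each slide, with 2732 without that of replicate 1, 1007 without that of replicate 2 and 1506 without that of replicate 3, and 714 probes were called in all of these fits. Over genes these fits called 15.0%, 5.82% and 8.46%, with 8.33%, 3.77% and 5.03% higher and 6.66%, 2.05% and 3.43% lower. All 5184 kept their sign in each, which follows for probes that moved the same way on all 3 slides. Of the 169 called genes picked by the naming rule given with the processing, not all of which are reported, some lost the call with a slide left out. These were 32, 87 and 59 without the slides of replicates 1, 2 and 3, each left out alone. Below, counts with a slide left out are given in that order. By the methods' t-test, which the study names for comparisons in general while its array probes were selected by another method, and which ignores the slide, 3861 probes were below 0.05 unadjusted and 0 after Benjamini-Hochberg adjustment.

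The 12 genes with the largest rise, among those above background on all 6 arrays, were Spp2, Chia, Depp1, Nupr1, Afp, Tbxas1, Wnt5b, Ltb, S100g, Capn8, Apod and Nup210. They rose by 3.27 to 4.67 log2 units, that is 9.62-fold to 25.4-fold. They were picked by size among called genes that moved the same way on all 3 slides. That their d4 and d6 arrays did not overlap is therefore no further result. Spp2, a secreted phosphoprotein of liver and bone, measured 7.37, 6.25 and 8.29 on d4 and 11.33, 12.46 and 12.13 on d6. All d6 arrays lay over 3 log2 units above all d4 arrays, and the change was 4.67 ± 0.59 (SE) with an adjusted p of 0.002. Its probe lies at chr9:87316459-87316518 of the rn4 assembly by the array's annotation. Afp, alpha-fetoprotein, the main serum protein of the yolk sac and fetal liver, measured 7.47, 6.55 and 7.46 on d4 and 9.86, 11.73 and 11.47 on d6. The d4 array of replicate 2 was its lowest and the d6 array of the same slide its highest. It rose 14.5-fold (adjusted p 0.0025, 0.061 at most when a slide was left out). S100g, the calcium binding protein calbindin-D9k of absorptive epithelia, measured 8.90, 6.56 and 9.53 on d4 and 11.89, 11.72 and 11.98 on d6 and rose by 3.54 ± 0.53. Nup210, a nuclear pore membrane glycoprotein, measured 10.29, 8.36 and 10.34 on d4 and 13.01, 12.96 and 12.82 on d6. Its d6 arrays agreed within 0.2 log2 units, whereas the d4 array of replicate 2 lay about 2 units below the other d4 arrays. It rose by 3.27 ± 0.35 (adjusted p 0.0012).

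Stress and growth regulators were among the same 12. Depp1, a target of FoxO factors, measured 6.78, 5.64 and 6.28 on d4 and 10.25, 11.30 and 10.24 on d6 and rose 20.6-fold (adjusted p 0.0008). Nupr1, a stress-induced chromatin protein, measured 7.87, 9.34 and 9.38 on d4 and 11.39, 14.31 and 13.21 on d6. Every d6 array was above every d4 array, and its rise of 4.10 ± 0.73 passed the threshold when 1 of the 3 slides was left out but not with the other 2. Wnt5b, a ligand of non-canonical Wnt signaling, rose by 3.60 ± 0.43, with 3.79, 3.00 and 4.17 on d4 and 8.72, 6.20 and 6.82 on d6. Tbxas1, thromboxane synthase, rose by 3.62 ± 0.32, and Ltb, the membrane anchor of lymphotoxin, by 3.59 ± 0.52. Ltb measured 5.72, 3.32 and 5.78 on d4 and 9.30, 7.93 and 8.38 on d6.

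The 12 largest falls were those of Zap70, Efna3, Pcdh19, Igfbp3, Cited4, Ptgis, Vit, Slc1a6, Bdkrb2, Plxnc1, Apln and Rasl11a. They fell by 2.47 to 5.90 log2 units, with no overlap between the days, which their selection in the same way makes likely. Zap70, a tyrosine kinase known from T cell receptor signaling, measured 9.31, 11.21 and 10.06 on d4 and 2.67, 4.77 and 5.43 on d6. The fall of 5.90 ± 0.63 was 59.9-fold (adjusted p 0.0012) and its probe lies at chr9:35714961-35715020 (rn4). Efna3, an ephrin ligand, measured 10.18, 10.37 and 9.96 on d4 and 6.88, 5.75 and 7.06 on d6 and fell by 3.61 ± 0.55. Pcdh19, a protocadherin, measured 9.96, 10.72 and 10.07 on d4 and 6.62, 6.37 and 6.97 on d6. Its slides agreed closely, and it fell 12.1-fold (adjusted p 0.00046). Igfbp3, an insulin-like growth factor binding protein, measured 10.57, 12.23 and 11.20 on d4 and 6.20, 8.98 and 8.07 on d6 and fell by 3.58 ± 0.55. Ptgis, prostacyclin synthase, measured 7.09, 9.95 and 7.67 on d4 and 3.53, 6.94 and 5.25 on d6. The d4 array of replicate 2 was nearly 3 units above that of replicate 1, but each slide fell, by 2.99 ± 0.60 in the fit. Apln, the ligand of the apelin receptor, fell by 2.56 ± 0.36, and Bdkrb2, the bradykinin receptor, by 2.73 ± 0.50.

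**Figure D1:**
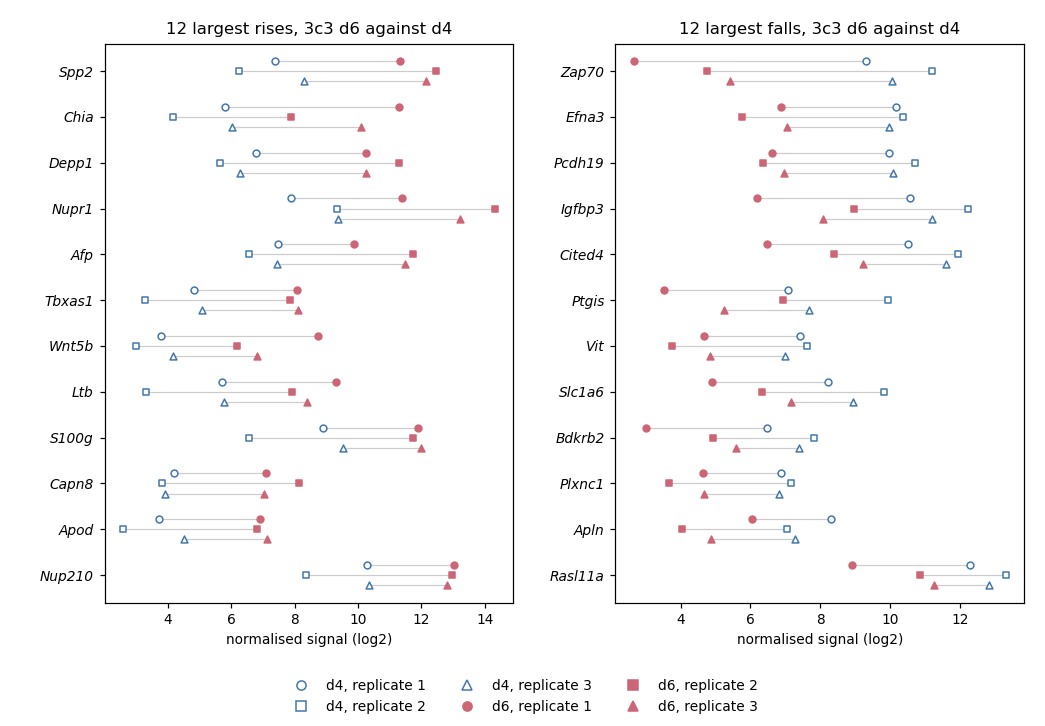
Normalised log2 signal of the 12 genes that rose most and the 12 that fell most in 3c3 from d4 (open symbols) to d6 (filled symbols), with 1 symbol per array and a line joining the arrays of a slide. On each line the 2 days are apart in the same direction on all 3 slides, which the selection required. Zap70, for one, moved from between 9.31 and 11.21 to between 2.67 and 5.43.

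Other genes were above background on only 1 of the days. Of the tested probes, 23 were well above background on all d6 arrays and on no d4 array, and 21 of them were called, whereas 17 were above it on all d4 arrays only, and 9 of them were called. Because the dim day gives only a limit, these changes are lower bounds. They compare the mean of the bright day with the higher of the probe's own signal and the lowest signal well above background on each dim array. Where only some arrays of a day were above background, the fitted change is given, and its size rests in part on dim signals. On the slide of replicate 3 the lowest signal well above background was 3.90 on d4 and 4.22 on d6. Pmch, the precursor of melanin-concentrating hormone, measured 0.34, 0.23 and 0.25 on d4 and 6.71, 5.51 and 5.56 on d6 and was at least 9.22-fold higher on d6 (adjusted p 0.0006). Vgf, a secreted neuropeptide precursor, was at least 8.57-fold higher, Bcas1 5.21-fold, Cmtm5 5.18-fold and Reg4, a secreted lectin of intestinal epithelium, 3.9-fold. In the other direction Gja3, a connexin of gap junctions, measured 5.88, 6.62 and 5.99 on d4 and 2.11, 1.62 and 2.67 on d6 and was at least 10.08-fold lower on d6 (adjusted p 0.0019). The corresponding bounds were 4.43-fold for the lipoprotein receptor Vldlr, 3.53-fold for Ppp1r3c, a glycogen targeting subunit of protein phosphatase 1, 2.57-fold for Rgs9, a regulator of G protein signaling, and 1.36-fold for Elfn1.

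Genes of mitosis and DNA replication fell. Of 50 tested members, 37 fell and 0 rose, against 14.3% of all genes in each direction, and all 50 had a change below 0. Their median change was -0.80, with -0.61, -1.01 and -0.68 on the 3 slides. With a slide left out, 23, 9 and 8 were called lower, and none higher. With only the 6 arrays of d4 and d6, 14 fell, beside 654 of all 21312 probes. Over all 26 arrays without the block, 10 fell, beside 1119 of all 24442 probes. The largest falls were those of Top2a, the topoisomerase that untangles replicated DNA, the mitotic kinases Plk1, Ttk and Bub1, and Tpx2, a spindle assembly factor. Top2a measured 11.25, 11.32 and 11.21 on d4 and 10.32, 9.63 and 10.33 on d6, with no overlap, and fell by 1.17 ± 0.17 (adjusted p 0.0034). Plk1 measured 13.34, 12.83 and 13.08 on d4 and 12.50, 11.23 and 12.27 on d6 and fell by 1.09 ± 0.24. The falls of Ttk, Tpx2 and Bub1 were 1.09 ± 0.14, 1.07 ± 0.18 and 1.07 ± 0.20. In such bulk RNA, fewer cells of a type and less RNA per cell cannot be told apart.

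Many promoters of mitotic genes hold the cell cycle genes homology region, whose core is TTTGAA. In RefSeq promoters of the assembly GRCr8, 250 bases before to 50 after a gene's start, TTTGAA was found on either strand in 18.1% of 27457 genes. It was in 15 of the 40 list members with a promoter entry, and in 14 of the 29 of these that fell. The windows of the members with the largest falls and a match before the start are shown 5′ to 3′ in the direction of the gene, with the match, TTTGAA or its reverse complement TTCAAA, in capitals.
Top2a (chr10:84473098-84473127, minus strand): gctagatgaatgTTCAAAtgaaactaggga
Birc5 (chr10:103572116-103572145, plus strand): cggcgcgtctccgcccgcgggtTTTGAAtt
Ccnb2 (chr8:79981684-79981713, minus strand): agcggcgcggtaTTTGAAtcgcggacccag

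Inhibitors of cyclin-dependent kinases were among the genes that rose. In the list of such inhibitors, D cyclins and p53 targets, 10 of 23 rose and 2 fell, with a median of 0.25, and with a slide left out 4, 3 and 4 rose and 2, 1 and 0 fell. Cdkn2b and Cdkn2a, the neighbouring inhibitor genes that encode p15 and p16, had the largest rises. Cdkn2b measured 7.92, 6.50 and 7.63 on d4 and 11.22, 9.69 and 10.07 on d6 and rose 7.87-fold (adjusted p 0.00046). Cdkn2a measured 8.93, 7.04 and 8.43 on d4 and 11.70, 10.05 and 10.81 on d6 and rose 6.59-fold (adjusted p 0.0011), and neither gene's days overlapped. Perp, a p53 target of cell junctions, rose by 1.35 ± 0.09. Gadd45a, a growth arrest gene, fell by 1.29 ± 0.26, and Cdkn2c, another inhibitor, by 1.27 ± 0.22.

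Genes of glycolysis and of the response to low oxygen fell as well. Under low oxygen, HIF factors escape hydroxylation by Egln enzymes and switch on glucose transporters, glycolytic enzymes and Vegfa. Of 34 members, 23 fell and 1 rose, with a median of -0.63 and slide medians of -0.64, -0.80 and -0.55. In the fits with a slide left out, 14, 7 and 8 fell. With only the 6 arrays 11 fell, and over all 26 arrays without the block 15 fell. Egln3, an oxygen-sensing prolyl hydroxylase, measured 13.34, 13.74 and 13.52 on d4 and 10.96, 10.92 and 11.74 on d6. The days were well apart, and it fell 5.02-fold (adjusted p 0.00087). Ankrd37, a HIF target, measured 11.64, 14.06 and 13.32 on d4 and 9.52, 10.65 and 11.68 on d6 and fell by 2.39 ± 0.50, although the d4 array of replicate 1 and the d6 array of replicate 3 crossed. Vegfa, the vascular growth factor, measured 9.26, 11.46 and 10.48 on d4 and 8.05, 9.12 and 9.18 on d6 and fell by 1.61 ± 0.42, and passed the threshold in 1 of the 3 fits without a slide. Pdk1, which keeps pyruvate out of the mitochondria, fell by 1.35 ± 0.16, and Ndrg1 by 1.42 ± 0.29. The single rise was that of Pfkfb3, which makes the activator of phosphofructokinase, by 1.16 ± 0.22. Its name and that of P4ha1 below were chosen after their values were seen. Of the 36 tested subunits of oxidative phosphorylation, 3 fell, Atp5f1a, Ndufa9 and Ndufv2, by 0.35 to 0.43, and none rose, with a median of -0.11. None of these 3 was called in any fit without a slide.

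The core of the hypoxia response element, ACGTG, was on either strand of 19.7% of all promoters, in 16 of 30 members of the glycolysis and hypoxia list and in 9 of the 21 that were called, Pfkfb3 included. Where ACGTG and its reverse complement CACGT overlap in a promoter, it was counted once. The windows of the 3 with the largest falls have the match nearest the start in capitals.
Ankrd37 (chr16:53001473-53001502, plus strand): gttccgggctacACGTGtcactgtttgggt
Bnip3 (chr1:203155043-203155072, minus strand): cgcacgcgccgcACGTGccacacgcgcccc
Aldoc (chr10:63715501-63715530, plus strand): cccccagggagtCACGTagctctgcggcat

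**Figure D2:**
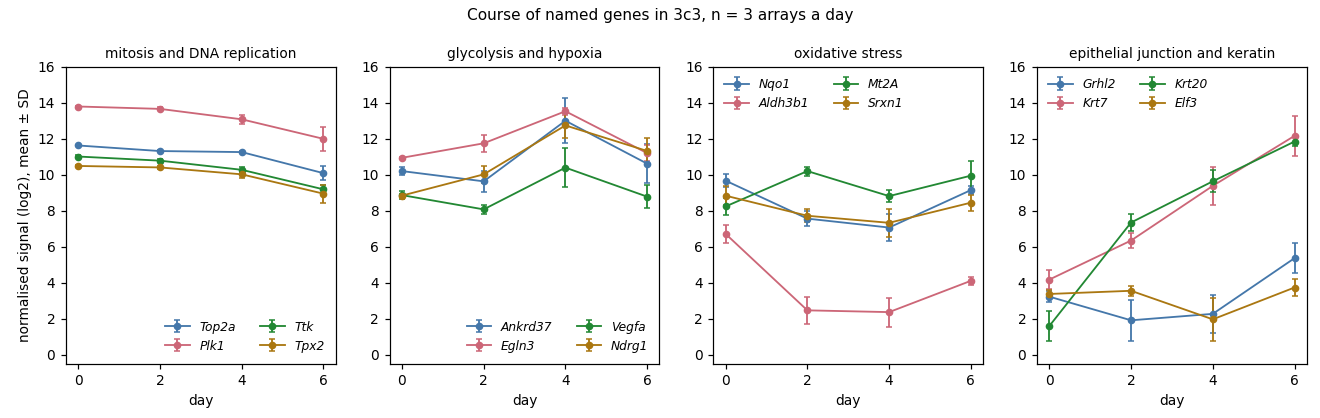
Mean ± SD of the normalised log2 signal in 3c3 on d0, d2, d4 and d6 (3 arrays a day) for the 4 called genes with the largest late change in each of 4 lists. Genes of glycolysis and hypoxia peaked on d4, Nqo1, Aldh3b1 and Srxn1 turned up after d4, and the mitosis genes were lowest on d6.

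Genes of sterol and fatty acid synthesis fell with less agreement between slides. Of 33 members 14 fell and 1 rose, with a median of -0.80, but the slide medians were -0.30, -1.18 and -0.84, and 17, 3 and 3 fell with a slide left out. Scd, the stearoyl-CoA desaturase, measured 9.58, 9.13 and 9.48 on d4 and 8.32, 5.13 and 7.39 on d6 and fell by 2.45 ± 0.57 (adjusted p 0.018). Lss and Hsd17b7, which act late in cholesterol synthesis, fell by 1.46 ± 0.34 and 1.29 ± 0.31, and Stard4, a sterol carrier, by 1.28 ± 0.13. Abcg1, which exports cholesterol, measured 8.79, 8.36 and 8.88 on d4 and 10.31, 10.15 and 9.97 on d6 and rose by 1.47 ± 0.18. Among 32 genes of the unfolded protein and amino acid stress responses, 8 fell and 3 rose. The slides disagreed here, with medians of 0.10, -1.20 and -0.21, and 2, 0 and 0 fell and 2, 1 and 0 rose with a slide left out. The falls included Creld2 (1.45 ± 0.43) and Pdia4 (1.07 ± 0.31), both of the endoplasmic reticulum, beside the bound for Vldlr given above. Atf5 rose by 1.07 ± 0.32.

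Some contractile smooth muscle genes rose from d4 to d6, and Tagln, Cnn1 and Smtn did not pass the test. Of 21 tested, 7 rose and 0 fell, with a median of 0.28 after medians of 0.98 from d0 to d2 and 0.88 from d2 to d4, and 6, 2 and 6 rose with a slide left out. With only the 6 arrays of d4 and d6, 3 of 21 rose, beside 895 of all 21312 probes. Over all 26 arrays without the block, 1 of 25 rose, beside 1444 of all 24442 probes. Pdlim3, an actinin binding protein, measured 7.38, 5.60 and 6.86 on d4 and 10.41, 8.48 and 8.997 on d6. All d6 arrays were above all d4 arrays, and it rose 6.43-fold (adjusted p 0.0016). Filip1l rose by 1.25 ± 0.26, Jph2, which couples membrane and calcium store, by 1.17 ± 0.19, Actg2, the enteric actin, by 0.92 ± 0.13 and Tpm1, the tropomyosin, by 0.73 ± 0.12. Tagln, transgelin, measured 14.13, 13.91 and 14.15 on d4 and 15.24, 14.59 and 14.50 on d6. Every d6 array was above every d4 array, but its change of 0.72 ± 0.24 did not pass the threshold (adjusted p 0.062). Cnn1, calponin, measured 11.22, 10.92 and 11.40 on d4 and 11.40, 10.88 and 11.07 on d6, and Smtn, smoothelin, 11.53, 11.95 and 11.92 on d4 and 12.03, 11.88 and 11.77 on d6. Both overlapped between the days, with changes of -0.06 ± 0.17 and 0.09 ± 0.15 and adjusted p of 0.82 and 0.69. The sign for Cnn1 turned without the slide of replicate 3, and that for Smtn without the slide of replicate 1.

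Among the transcriptional regulators of smooth muscle, 2 of 13 rose and 3 fell. Mrtfa, the myocardin-related partner of serum response factor, measured 12.99, 13.14 and 13.02 on d4 and 13.61, 13.91 and 13.45 on d6 and rose by 0.61 ± 0.15 (adjusted p 0.021), but in no fit without a slide. Tead1, a partner of Yap, fell by 0.99 ± 0.19 and Smarcd1, a BAF complex subunit, by 0.46 ± 0.14, the latter with overlapping days and in no fit without a slide. Gata6 belongs to this list and to the primitive endoderm list below. Srf, with 13.88, 13.87 and 13.73 on d4 and 13.87, 13.59 and 13.50 on d6, and Smarcd3, another BAF subunit, with 11.64, 11.36 and 11.78 on d4 and 12.38, 11.28 and 11.63 on d6, did not pass (adjusted p 0.24 and 0.51), and Smarcd3 turned sign without the slide of replicate 1.

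Of 24 genes of the TGFβ pathway and its feedback, 6 rose and 3 fell, with a median of 0.49, beside 14.3% in each direction over all genes. Tgfb3, a ligand, measured 6.89, 6.36 and 7.10 on d4 and 8.83, 8.90 and 8.98 on d6 and rose 4.35-fold (adjusted p 0.00068). Pmepa1 and Ldlrad4, related inhibitors of Smad activation, rose by 1.76 ± 0.29 and 2.14 ± 0.40, and Tgif1, a repressor of Smad targets, by 1.67 ± 0.13. With a slide left out, 5, 4 and 4 rose and 2, 1 and 1 fell. Of the PDGF genes, Pdgfra, the alpha receptor, was the only one of 3 tested that was called, and fell by 0.52 ± 0.15, but was called in no fit without a slide.

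Of 33 collagens and other matrix genes, 11 rose and 10 fell, with a median of -0.19 and, with a slide left out, 8, 6 and 9 rises and 6, 3 and 4 falls. Fbln2, a fibulin of elastic fibres and basement membranes, measured 2.67, 2.23 and 0.34 on d4 and 6.48, 6.01 and 6.22 on d6 and rose by 4.49 ± 0.52 (adjusted p 0.0016), with 2 of 3 d4 arrays above background. Its d4 value of replicate 3 lay below the lowest signal well above background on that array, 3.90, so the size of the rise is uncertain. Col1a1, the main chain of fibrillar collagen, measured 7.37, 6.31 and 7.53 on d4 and 10.78, 8.33 and 9.49 on d6 and rose 5.52-fold (adjusted p 0.0034). Loxl1, an elastin cross-linking enzyme, was at least 3.44-fold higher on d6, and Spon2, a spondin, rose by 2.13 ± 0.19. Plod2, a collagen lysyl hydroxylase, measured 8.77, 10.06 and 8.73 on d4 and 5.95, 8.003 and 7.06 on d6 and fell by 2.18 ± 0.33 (adjusted p 0.0036), and P4ha1, a collagen prolyl hydroxylase that is also in the hypoxia list, fell by 1.14 ± 0.13. Of 19 matrix proteases and inhibitors, 9 rose and 2 fell. Plau and Plat, the urokinase and tissue type plasminogen activators, rose by 2.32 ± 0.19 and 1.35 ± 0.17, and the serine protease Prss23 rose 9.01-fold, with 5.502, 6.37 and 5.80 on d4 and 9.002, 9.32 and 8.86 on d6.

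Epithelial genes rose. Among 42 junction and keratin genes, 24 rose and 1 fell, with a median of 0.59 and slide medians of 0.61, 0.84 and 0.57. In the fits with a slide left out, 19, 8 and 12 rose. With only the 6 arrays 8 of 42 rose, and over all 26 arrays without the block 14 of 47 rose. Krt7, a keratin of simple epithelia, measured 10.14, 8.16 and 9.85 on d4 and 13.29, 11.03 and 12.17 on d6 and rose 6.87-fold (adjusted p 0.0018). Krt20, an intestinal type keratin, measured 9.90, 8.93 and 10.08 on d4 and 12.07, 11.59 and 11.88 on d6 and rose by 2.21 ± 0.44. Grhl2, a transcription factor of epithelial junctions, measured 2.93, 2.80 and 1.07 on d4 and 6.35, 4.83 and 4.91 on d6. The spread on d4 was wide and 2 of its arrays were above background, and Grhl2 rose by 3.10 ± 0.67 (adjusted p 0.014). The d4 value of replicate 3 was below the lowest signal well above background on that array, 3.90, which leaves the size of this rise uncertain. The endosomal GTPase Rab25 and the factor Elf3 rose by 1.69 ± 0.35 and 1.77 ± 0.35, Elf3 with overlapping days. Cdh1, E-cadherin, was singled out after its values were seen. It measured 12.04, 11.64 and 12.19 on d4 and 13.33, 13.86 and 13.28 on d6 and rose by 1.53 ± 0.21 (adjusted p 0.0027), and its d0 mean was 9.47 ± 0.29 (SD, n = 3). Of the 8 tested factors of the epithelial-mesenchymal switch, 3 fell, Snai1, Zeb1 and Twist1, all repressors of E-cadherin. With a slide left out, 0, 0 and 3 of this list fell, and 0 with only the 6 arrays. Snai1 measured 11.99, 12.93 and 12.72 on d4 and 9.98, 9.96 and 11.75 on d6 and fell by 1.98 ± 0.45 (adjusted p 0.016), Zeb1 fell by 1.32 ± 0.22 and Twist1 by 1.31 ± 0.23. Fibronectin, Fn1, the single riser of this list, rose by 1.32 ± 0.24.

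Of 30 tested primitive endoderm genes, 16 fell and 6 rose. In the fits with a slide left out, 8, 3 and 5 fell and 3, 0 and 4 rose. With only the 6 arrays 7 fell and 3 rose, and over all 26 arrays without the block 3 fell and 3 rose. The 6 risers were Afp, Ttr, Apoa1, Apoa2, Apob and Apom, all secreted carrier proteins. Ttr, transthyretin, a carrier of thyroid hormone and retinol binding protein, measured 9.39, 7.29 and 10.08 on d4 and 11.83, 11.66 and 12.40 on d6 and rose 8.25-fold (adjusted p 0.0055). Apoa1, the apolipoprotein of high density lipoprotein, measured 9.25, 9.05 and 10.22 on d4 and 11.51, 12.66 and 13.05 on d6. It had been at 1.09 ± 1.04 (SD, n = 3) on d0, and rose by 2.90 ± 0.57 from d4 to d6. Apoa2 rose by 1.59 ± 0.31. The falls included the transcription factors Gata6, Gata4, Sox17 and Sox7, and the largest was that of Stra6, the retinol transporter, by 1.69 ± 0.19. Gata6 measured 13.03, 12.83 and 12.63 on d4 and 12.06, 12.07 and 12.01 on d6 and fell by 0.78 ± 0.13, with the other 3 tested probes of the gene called in the same direction. Gata4 measured 13.60, 13.90 and 13.78 on d4 and 12.81, 13.08 and 13.22 on d6 and fell by 0.73 ± 0.11. The 5 rMAPC markers had a mean of 10.98 to 11.09 on the d4 arrays and of 10.31 to 10.46 on the d6 arrays. Pou5f1, which encodes Oct4, measured 7.07, 7.17 and 7.24 on d4 and 6.82, 7.49 and 7.97 on d6 against a d0 mean of 11.53 ± 0.09 (SD, n = 3), and did not pass between d4 and d6 (adjusted p 0.37).

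Cardiac and mesendoderm genes moved in mixed directions. Of 22 tested cardiac genes, 9 rose and 3 fell, with a median of 0.76, and 8, 4 and 6 rose and none fell with a slide left out. Nppa, atrial natriuretic peptide, measured 9.20, 7.62 and 8.93 on d4 and 12.15, 10.51 and 10.54 on d6 and rose 5.61-fold (adjusted p 0.0046). The myosin light chains Myl2 and Myl4 rose by 2.48 ± 0.40 and 1.79 ± 0.41, and troponin C, Tnnc1, by 1.56 ± 0.18. Among 19 mesendoderm and early mesoderm factors, 6 rose and 4 fell. With a slide left out, 4, 3 and 2 rose and 3, 1 and 4 fell, and over all 26 arrays 0 rose and 4 fell. Lefty2, an inhibitor of Nodal, measured 10.15, 7.06 and 9.43 on d4 and 13.26, 11.06 and 11.93 on d6 and rose 9.21-fold (adjusted p 0.0042), and Gsc, goosecoid, a homeobox target of Nodal, rose by 1.71 ± 0.29. Cited4, a coactivator of the Cbp/p300 class, measured 10.53, 11.96 and 11.61 on d4 and 6.48, 8.39 and 9.24 on d6 and fell 10.05-fold (adjusted p 0.0034). Foxc1, a forkhead factor of mesoderm, measured 5.87, 5.11 and 5.08 on d4 and 3.60, 2.33 and 2.99 on d6 and fell by 2.38 ± 0.27, with 1 of 3 d6 arrays above background, and its relative Foxc2 measured 6.24, 6.50 and 6.69 on d4 and 6.15, 6.58 and 6.81 on d6 without passing (adjusted p 0.92). Sox4 rose by 1.49 ± 0.25 and Lhx1 by 1.22 ± 0.37, the latter with overlapping days, and Eomes measured 6.58, 4.70 and 6.05 on d4 and 7.72, 5.61 and 6.79 on d6 without passing (adjusted p 0.13). Foxj1, the regulator of motile cilia, measured 8.16, 6.30 and 8.21 on d4 and 11.08, 8.59 and 10.14 on d6 and rose 5.21-fold (adjusted p 0.0056), while 3 of the 12 tested genes of its programme, Foxj1 included, rose and 1 fell.

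Genes of oxidative stress defence rose, 13 of 28 with 0 falls and a median of 0.61, and 6, 5 and 5 rises with a slide left out. Nqo1, a quinone reductase, measured 7.63, 6.21 and 7.36 on d4 and 9.34, 9.22 and 8.89 on d6 and rose by 2.08 ± 0.26 (adjusted p 0.0019). Srxn1, sulfiredoxin, rose by 1.12 ± 0.18, Gstp1, a glutathione transferase, by 1.07 ± 0.15, Aldh3b1, an aldehyde dehydrogenase, by 1.74 ± 0.25 and the metallothionein Mt2A by 1.14 ± 0.25. The antioxidant response element core TGACNNNGC was in 4 of 11 promoters of these risers, in 8 of 23 of all tested members and in 12.2% of all promoters. Interferon and antigen presentation genes rose in 12 of 37 cases and fell in 0, with a median of 0.40 and 11, 2 and 4 rises with a slide left out. Gbp2, a guanylate binding protein, measured 7.55, 6.95 and 7.32 on d4 and 9.09, 8.80 and 8.72 on d6 and rose 3.03-fold (adjusted p 0.00086). The factor Irf8 rose by 1.33 ± 0.22, Ifi27 by 1.28 ± 0.17, the viral restriction factor Bst2 by 1.23 ± 0.37 with overlapping days, and the class I gene RT1-T24-4, which has near-identical relatives, by 1.11 ± 0.25. The core of the interferon-stimulated response element, GAAA repeated after any 2 bases, was in 6 of 12 promoters of the risers, in 18 of 33 of all tested members and in 3.77% of all promoters. The windows of the 3 risers with the largest change and a match before the start are shown with the match in capitals.
Gbp2 (chr2:234005686-234005715, plus strand): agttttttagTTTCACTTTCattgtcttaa
Ifi27 (chr6:128355218-128355247, plus strand): gagagctgggGAAATGGAAActtacctcat
Bst2 (chr16:18255073-18255102, minus strand): ccaggaaaatGAAACTGAAAggtggcagca

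**Figure D3:**
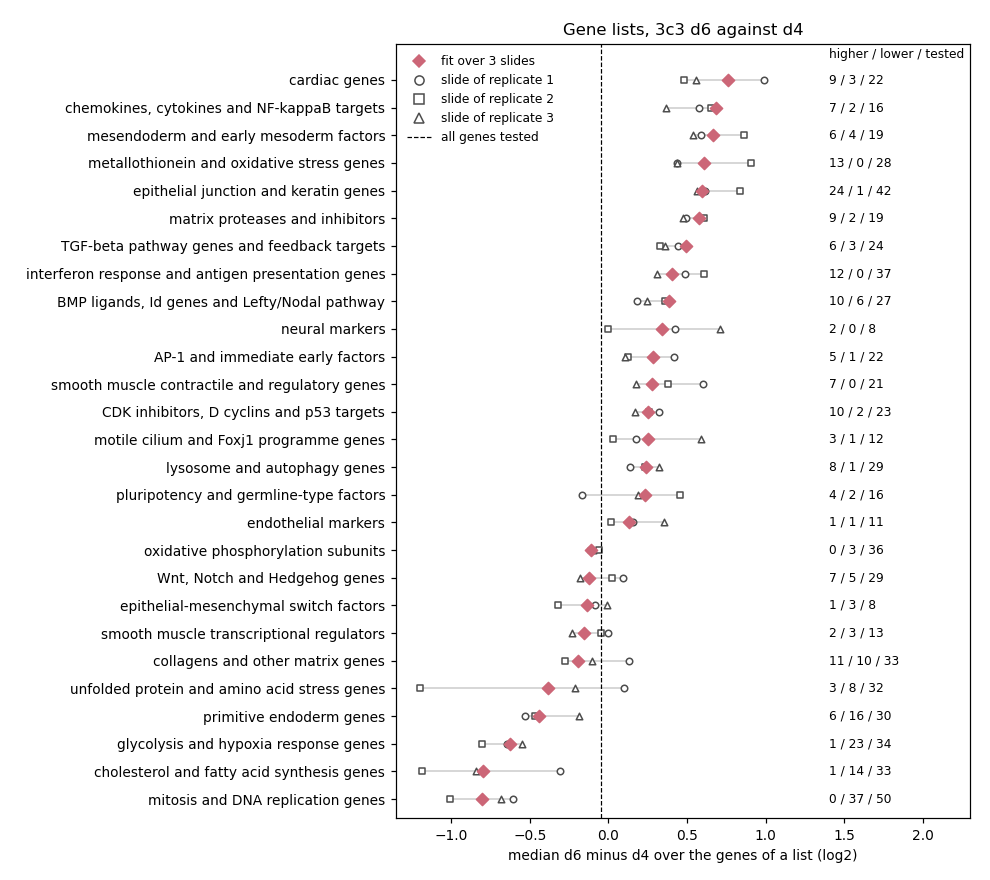
Median d6 minus d4 (log2) over the tested genes of each list with at least 8 of them, from the fit (diamonds) and on each slide (open symbols), beside the number of members higher, lower and tested. The mitosis list lies at -0.80, as does the sterol and fatty acid list, and the dashed line marks the median of all genes, -0.05, while the unfolded protein and sterol lists show the widest range between slides.

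The late step was set beside the first step, d2 against d0, which uses other arrays of the same slides. There 3456 probes were higher and 3919 lower, 16.2% and 18.4% of the probes and 34.6% in either direction. Of the probes called at both steps, 1785 of 2405 (74.2%) had the same sign, 1064 higher at both and 721 lower at both, and 310 turned in each direction. Another 2779 probes were called only at the late step, which does not show that they differ between the steps. Among the genes that had risen first and fell late, Zap70 had gone up by 3.53 from d0 to d2 and by 5.81 from d2 to d4, and Cited4 by 4.46 and 4.13. Prdm6, a repressor of smooth muscle genes, had risen by 3.35 and fell by 2.47 ± 0.52, although only 2 of its d4 arrays and 1 of its d6 arrays were above background. Shisa8 measured 10.50, 10.43 and 10.15 on d4 and 8.26, 7.54 and 8.14 on d6 and fell by 2.38 ± 0.18 after a rise of 2.43, and Gja3 belonged to the same group. The reverse turn was made by A3galt2, Hpd, Nqo1, Slc30a2 and B4galnt4. Nqo1 had fallen by 2.11 before its late rise, and Slc30a2, a zinc transporter, by 1.94 before it rose by 2.77 ± 0.24. Hpd, which degrades tyrosine, was at least 2.77-fold higher on d6 than on d4 and A3galt2, a glycosyltransferase, at least 3.3-fold. B4galnt4 rose by 1.93 ± 0.54, with overlapping days and in no fit without a slide.

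In Cl19, 1372 probes rose and 1623 fell from d4 to d6 among 23708 tested in a fit over both lines, 5.79% and 6.85% of the probes and 12.6% in either direction, against 20.2% in 3c3 in the same fit. Of the probes called in 3c3, 23.7% were called in Cl19 with the same sign, and of those called in Cl19, 37.9% were called so in 3c3. Of the 1229 probes called in both lines, 1134 had the same sign and 95 the opposite sign. The difference between the lines was called for 826 probes (3.48%), with the change in 3c3 above that in Cl19 for 485 (2.05%) and below it for 341 (1.44%). This number was 24 with the d4 and d6 arrays alone, 71 without the 3c3 slide of replicate 2, 173 without that of replicate 3 and 1282 without the Cl19 d2 array of replicate 1, which stands apart from its group. Of the 50 mitosis genes 0 differed, and 15 fell in Cl19 too, with a median of -0.69. Of the 34 glycolysis and hypoxia genes 0 differed, with 6 falls in Cl19 and a median of -0.30. A p that misses the threshold does not show that the lines changed alike.

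Among the genes named above, the serum carriers Apoa1 and Apoa2 differed between the lines, as did S100g and Spp2. Apoa1 changed by -1.11 ± 0.50 in Cl19, and the difference of 4.01 ± 0.71 had an adjusted p of 0.009. Apoa2 differed by 4.10 ± 0.59 (adjusted p 0.0036), S100g by 4.40 ± 0.66 (adjusted p 0.0042) and Spp2 by 4.40 ± 0.73 (adjusted p 0.0066). For Ttr and Afp the differences of 4.30 ± 1.13 and 3.66 ± 1.22 did not pass (adjusted p 0.052 and 0.12). Of the 30 primitive endoderm genes, 6 differed, 5 of them with 3c3 above Cl19, and 17 fell and 1 rose in Cl19. Of the 47 epithelial genes tested in both lines, 7 differed, all with the change in 3c3 above that in Cl19, against 2.55% of all genes in this direction, 1.74% in the other and 4.29% in either. Cited4 changed by 0.60 in Cl19, with a difference of -3.93 ± 0.74 (adjusted p 0.012), and Foxc1 by -0.20, with -2.18 ± 0.45 (adjusted p 0.019).

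**Figure D4:**
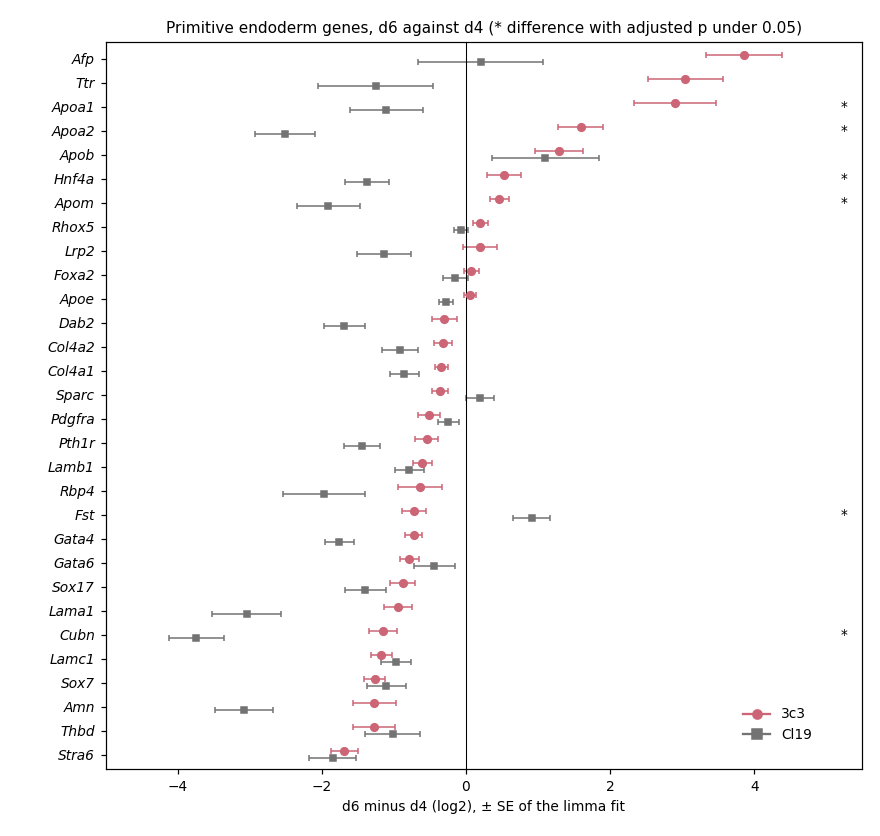
Change from d4 to d6 (log2, ± SE of the limma fit) of the 30 tested primitive endoderm genes in 3c3 (circles) and Cl19 (squares), in the order of the change in 3c3, with an asterisk where the difference between the lines had an adjusted p below 0.05. Afp, Ttr, Apoa1 and Apoa2 lie to the right of 0 in 3c3, whereas Apoa1 and Apoa2 lie to its left in Cl19, and Gata4, Gata6, Sox7 and Sox17 lie to the left in both.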

How the data were processed

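RNA was hybridized to 1-colour (Cy3) Agilent arrays, 4 per slide. The deposited scanner files hold intensity values, the processed signal after the background subtraction of Agilent Feature Extraction 10.1.1.1, a version credited to the submitters' processing notes. The authors also deposited a table of log2 values of the same arrays, used here only as an alternative. Control features were left out, spots of a probe were averaged, and the log2 processed signals of all 26 arrays were quantile-normalized together. Probes well above background on all 3 arrays of at least 1 day of 3c3 entered a linear model in limma 3.58.1 (R 4.3.3) over the 12 arrays of 3c3, with the slide as a block and Benjamini-Hochberg adjustment over all probes. The lines were compared in 1 fit over the 24 arrays of 3c3 and Cl19. The fit was run on simulated data with the same spread on all days, so that run cannot show the effect of pooling the days.

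The replicate numbers are those of the slides. Deviations from the group means correlated above 0.1 in all 18 pairs of 3c3 arrays on the same slide (median r 0.48). They did so in 5 of the 36 pairs on different slides. The median over those 36 was -0.32, but deviations within a group cancel out, which favours negative values there. Gene lists are described by counts and medians of 1 probe per gene, the brightest over the 12 arrays. The members and the lists were chosen with earlier results of these data known. The text names the 12 largest rises and falls among genes above background on all 6 arrays, up to 5 called members of each list with the largest change, the genes named in the study, up to 5 genes in each direction above background on 1 day only, the 6 largest line differences and 5 turns each way. Aldoc, Apob, Apom, Birc5, Bnip3, Ccnb2, Cdh1, P4ha1, Pfkfb3, Sox7 and Sox17, the 3 called oxidative phosphorylation genes and the cell type markers were named outside this rule, the genes after their values were seen. Promoters came from RefSeq for the GRCr8 assembly, and probe positions (rn4) from the array's annotation. Some genes that this rule or the lists hold are not reported here. The alternatives were other normalizations, filters, blocks and sets of arrays, and each slide left out.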

Additional observations from a re-analysis of the deposited data

Results flagged for a closer look

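The change from d4 to d6 differed between 3c3 and Cl19 for 826 probes by the limma test of the difference (4323 at an unadjusted p under 0.05), and the 6 genes with the largest differences are given here. Mmp13, a collagenase, had a difference of -6.03 ± 1.01 (adjusted p 0.0066), with a mean of 4.58 on d4 and 2.37 on d6 in 3c3 and of 2.90 and 6.71 in Cl19. Its d6 signal in 3c3 was well above background on 1 of 3 arrays. Onecut1, a transcription factor of liver and pancreas, had a difference of 5.60 ± 0.75 (adjusted p 0.0023), and its mean in Cl19 went from 5.82 to 1.80, with 1 of 3 d6 arrays above background. Zap70 differed by -4.93 ± 1.01 (adjusted p 0.018). For Rgs9 the difference was -4.73 ± 0.57 (adjusted p 0.0015), while its d6 signal in 3c3 and its d4 signal in Cl19 were above background on no array. Adamtsl2 and Col5a2, both of the matrix, were above background on no d4 or d6 array of 3c3 and on all d6 arrays of Cl19, so their fitted differences of -5.19 (adjusted p 0.013) and -4.79 (adjusted p 0.0066) rest on dim signals. With only the 12 d4 and d6 arrays, Rgs9 was the single one of the 6 that was still called. Each group held 3 arrays, too few for a test of single outlying samples.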

How the results depend on the processing

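The number of probes called between d4 and d6 was within 1.5 times of 5184 with the other normalizations and filters on dim probes. It was 2641 without the replicate block, 2563 over all 26 arrays without the block, 1549 with only the 6 arrays and the block, and 0 by the methods' t-test. It ranged from 1007 to 2732 with 1 slide left out, and was 1470 with the slide of replicate 3 left out and the filter redone, which was chosen after seeing the data. The probes called at both steps with the same sign numbered 1117 with no filter on dim probes, 787 without the replicate block, 706 over 26 arrays without it, and 393 to 670 with a slide left out. The line difference was called for 542 probes with the authors' log2 table (227 with 3c3 above Cl19 and 315 below, against 485 and 341), 488 with no filter, 435 over 26 arrays without the replicate block, 24 with only the 12 arrays of d4 and d6, 71 to 467 without a 3c3 slide, and 1282 without the Cl19 d2 array, again chosen after seeing the data. The median of the epithelial list was 0.41 with normexp. With only the 6 arrays, 4 sterol and fatty acid genes fell, and 4 oxidative stress and 4 interferon genes rose. Over all 26 arrays without the block these counts were 8, 7 and 7. Of 179 tested genes that the naming rule holds, 4 changed sign in some setting, and none of these was called. With a slide left out, Cnn1 ranged from -0.18 to 0.073, Foxc2 from -0.0079 to 0.10, Smarcd3 from -0.12 to 0.33 and Smtn from -0.11 to 0.22, and Smtn was at -0.0037 with array weights. Of the 169 that passed, 25 lost the call without the replicate block and 87 without replicate 2. The number of arrays and the higher background on the slide of replicate 3 limit what could be called among dim genes.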

Other observations

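The counts of the groups below stand beside 14.3% of all genes that rose and 14.3% that fell. Among 16 chemokines, cytokines and NF-kappaB targets, 7 rose and 2 fell. Cxcl12, the chemokine that retains stem cells in bone marrow, measured 7.38, 6.70 and 6.84 on d4 and 3.11, 3.59 and 3.82 on d6 and fell by 3.47 ± 0.29 (limma adjusted p 0.00068), with 2 of 3 d6 arrays above background. Csf2, a growth factor of granulocytes and macrophages, was at least 3.5-fold higher on d6, and Cxcl1 and Il18 rose by 2.76 ± 0.34 and 2.000 ± 0.27. Among 29 Wnt, Notch and Hedgehog genes, 7 rose and 5 fell. Wnt7a measured 4.96, 5.48 and 5.38 on d4 and 7.96, 8.60 and 8.45 on d6 and rose by 3.06 ± 0.36, Dll1, a Notch ligand, fell by 2.04 ± 0.36 and Ihh, a Hedgehog ligand, by 1.28 ± 0.16. Of 27 BMP, Id and Nodal pathway genes, 10 rose and 6 fell. Bmp4, a ligand, rose by 2.22 ± 0.21 and Bmp1, a procollagen protease, by 1.73 ± 0.13, while Id4 fell by 1.75 ± 0.25.

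Of 29 lysosome and autophagy genes, 8 rose and 1 fell, with 7, 1 and 2 rises without the slides of replicates 1, 2 and 3, each left out alone. Gabarapl1, which acts in autophagosomes, rose by 1.13 ± 0.15, and Asah1, a ceramidase, by 1.12 ± 0.18. Among 22 AP-1 and immediate early genes, 5 rose and 1 fell, and Dusp6, a phosphatase of ERK, rose by 1.70 ± 0.30. Of 16 pluripotency and germline factors, 4 rose and 2 fell, with Klf2 higher by 1.51 ± 0.36. Of 11 tested endothelial markers 1 rose and 1 fell, with a median of 0.13. Kdr, the VEGF receptor of endothelium, measured 4.62, 8.19 and 7.11 on d4 and 2.91, 2.75 and 2.47 on d6 and fell by 3.93 ± 0.67 (adjusted p 0.0056), with 2 of 3 d6 arrays above background. It was called in 1 of the 3 fits without a slide. Tie1, an endothelial receptor, rose by 0.90 ± 0.16, and Pecam1, with a mean of 2.15 on d4 and 3.71 on d6 and 2 of 3 arrays above background on each day, did not pass (adjusted p 0.092). Among 8 neural markers 2 rose and 0 fell, among 6 of blood cells 3 and 0, among 4 of skeletal muscle 1 and 0, and among 7 of bone, cartilage and fat 2 and 2. The intermediate filament Nes rose by 1.36 ± 0.14, Csf1r by 2.08 ± 0.37, and Acta1, the skeletal actin, by 0.83 ± 0.14. Of the last list, Col2a1 rose by 2.45 ± 0.46 and Pparg, a fat cell regulator, fell by 1.53 ± 0.31.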
